A study of Mus musculus with 12 samples.

Results

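Haematopoietic stem cells (HSCs) of wild-type (WT) C57BL/6 mice were compared between young animals of 3 months and aged animals of 18 months by ATAC-seq, which inserts sequencing adapters into open DNA. The comparison took 3 Young WT and 3 Aged WT libraries, 6 of the 12 in the series; the other 6 came from Young and Aged Mlkl-/- mice of the same ages and strain, which lack the necroptosis effector MLKL. HSCs were sorted from bone marrow as Lin-/cKit+/Sca1+/Flk2-/CD48-/CD150+ cells, and each library held cells pooled from several mice, with more young than aged mice to a pool. The deposited data were 12 lists of accessibility summits, 1 per library, each summit with a score (−log10 of the q value). Summits with a score of 3 or more on chromosomes 1 to 19 and X were kept, every list was shortened to its 35696 best-scored summits, the length of the shortest list, and windows of 250 bp on each side were merged over the lists into 52766 regions. Of these, 45897 were called in 1 or more WT list and 17708 in all 6. Because the lists held scores and no read counts, sequencing depth was unknown and a region was compared by its rank within each list, rank 1 being the highest score.

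HSCs sit at the top of blood formation and are mostly quiescent. Open regions mark promoters and distal elements where transcription factors can bind, and the set of open distal elements is characteristic of a cell type and its state. With age, mouse HSCs are known to become more numerous and to yield fewer lymphoid and more myeloid and platelet cells.

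To show the DNA behind the changes, 121 bases around the highest summit are given for 9 regions, read from the plus strand of the RefSeq copy of GRCm38 (mm10). Capitals mark matches, on either strand, to 12 motifs. The activator protein AP-1 was searched as TGANTCA, the family of ETS factors as AGGAAGT, the core-binding RUNX factors as TGTGGTT, and the GATA factors as AGATAA. The E-box of basic helix-loop-helix proteins was searched as CAGNTG, the enhancer-binding C/EBP proteins as TTGCNNCAA, and the nuclear factor I family, NFI, as TTGGCA. The interferon regulatory IRF factors were searched as GAAANNGAA, the cytokine-activated STAT factors as TTCNNNGAA, the inflammatory factor NF-kB as GGGANTTCC, the insulator protein CTCF as AGGNGGCNC, and homeobox proteins as TAATTA. The first 4 regions ranked higher at 18 months and were shown as intergenic regions of large change (Kcna4, Trhr), as the largest change among regions called in all 6 WT lists (Ros1) and as the region of a listed HSC ageing gene (Ptprk). Intergenic regions carry the name of the nearest protein-coding start.
Kcna4, chr2:107231833-107231953: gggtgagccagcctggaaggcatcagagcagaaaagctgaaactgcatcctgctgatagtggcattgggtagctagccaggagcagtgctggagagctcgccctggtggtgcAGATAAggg
Trhr, chr15:44176096-44176216: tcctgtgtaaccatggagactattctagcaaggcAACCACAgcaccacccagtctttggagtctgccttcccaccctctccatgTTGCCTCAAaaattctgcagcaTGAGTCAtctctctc
Ros1, chr10:52133552-52133672: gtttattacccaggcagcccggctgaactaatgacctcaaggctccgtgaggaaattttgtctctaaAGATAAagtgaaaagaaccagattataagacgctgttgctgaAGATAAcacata
Ptprk, chr10:28105383-28105503: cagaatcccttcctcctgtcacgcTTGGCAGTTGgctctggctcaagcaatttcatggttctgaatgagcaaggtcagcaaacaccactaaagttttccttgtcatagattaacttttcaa
The next 5 ranked lower at 18 months and were shown as large changes (Spred2, Cxcr4, Zfp664), as the largest change among regions called in all 6 WT lists (C2cd5) and as the region of a lymphoid gene (Bach2).
Spred2, chr11:19993868-19993988: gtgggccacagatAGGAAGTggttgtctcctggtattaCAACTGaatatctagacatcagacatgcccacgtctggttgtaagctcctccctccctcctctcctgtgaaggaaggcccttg
Cxcr4, chr1:128705299-128705419: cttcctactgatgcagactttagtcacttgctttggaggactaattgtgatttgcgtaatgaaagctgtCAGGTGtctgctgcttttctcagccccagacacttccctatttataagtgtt
Zfp664, chr5:124929587-124929707: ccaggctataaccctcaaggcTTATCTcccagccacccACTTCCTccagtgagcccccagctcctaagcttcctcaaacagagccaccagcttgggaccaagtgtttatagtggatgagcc
C2cd5, chr6:143057459-143057579: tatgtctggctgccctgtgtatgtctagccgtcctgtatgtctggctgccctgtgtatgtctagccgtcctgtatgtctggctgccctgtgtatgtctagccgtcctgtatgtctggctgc
Bach2, chr4:32279968-32280088: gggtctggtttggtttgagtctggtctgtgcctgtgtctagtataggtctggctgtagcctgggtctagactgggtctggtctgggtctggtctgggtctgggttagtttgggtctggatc
The Ros1 window held the GATA letters at both capitalised positions, and the Trhr window matched C/EBP, AP-1 and, on the minus strand, RUNX. In the Ptprk window the NFI and E-box matches shared the letters between them. The Spred2 window matched ETS and the E-box, and the Zfp664 window matched GATA and ETS on the minus strand. No motif matched in the C2cd5 and Bach2 windows. The C2cd5 window was a tandem repeat: over 201 bases it matched itself at 100% of positions when moved by 36 bases. The Bach2 window reached 59.9% at a shift of 39 bases. An identity of at least 75% at any shift from 5 to 60 bases was found in 0.394% of the 38050 tested regions, in 0 of the 84 regions that were higher with age, in 1 of the 29 that were lower, and in 16 of the 825 that lost their call.

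The labelled cell type was checked at marker gene starts. Among HSC markers, Kit, Hlf and Meis1 had a summit within 1 kb of a start in all 6 WT lists. The summit at Hlf ranked 5221, 3926 and 4000 in the young lists and 7779, 8491 and 6079 in the aged lists. Procr, Gata2 and Fgd5 were called in some lists and Ly6a, Slamf1 and Mecom in none. None of 7 granulocyte and monocyte markers and none of 7 T and NK cell markers was called in any WT list, and of 6 B cell markers only Cd79b was called, in 1 aged list. The erythroid marker Epor was called in all 6 lists. Of 6 stromal and endothelial markers Col1a1, Kdr and Pdgfrb were called in all 3 young lists and Cxcl12, Lepr and Cdh5 in no WT list, and Col1a1 and Pdgfrb were absent from Aged WT 3. Among 79 tested regions of the 6 marker lists limma called 0 with age at an adjusted p under 0.01, and 4 (5.06%) had an unadjusted p under 0.05, against 14.9% of all tested regions. The part of other cells in the results was not tested.

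Each aged list was longer than each young list. At a score of 3 or more, the Young WT lists held 47181, 44335 and 37449 summits and the Aged WT lists 55450, 50966 and 58617. The groups did not overlap and differed by 12023 summits on average (exact two-sided permutation test, p = 0.1, the smallest that 3 against 3 libraries allow). In the shortened lists the lowest score kept was therefore higher in aged lists (6.69 to 7.60) than in young lists (3.88 to 5.67). A region could thus leave the shortened aged lists while still holding a deposited summit, and deposited scores are given below where this matters.

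The lists were compared for their overlap. The Jaccard index, the share of the regions called in either list that both lists called, ranged from 0.691 to 0.700 among the young lists and from 0.637 to 0.695 among the aged lists. Between a young and an aged list it ranged from 0.606 to 0.647. The mean within ages exceeded the mean between ages by 0.0522 (exact two-sided permutation test, p = 0.1, again the smallest possible). Aged WT 3 stood farthest from the others, since its 3 indices with young lists, 0.606 to 0.612, were the lowest of all.

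The share of called regions within 1 kb of a transcription start was 42.9%, 43.6% and 43.4% in the young lists and 42.5%, 44.7% and 39.2% in the aged lists. The difference of −1.15 percentage points was within the spread of the aged lists (exact two-sided permutation test, p = 0.7), and it came to 0.310 in the opposite direction without Aged WT 3.

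Few regions changed rank beyond the spread between libraries. With normal scores of the ranks (regions not called share the lowest rank) fitted in limma over all 12 libraries, 84 of 38050 tested regions (0.221%) were higher and 29 (0.0762%) were lower at 18 months at an adjusted p under 0.01. Tested regions were those called in at least 3 of the 12 lists. All 113 had 3 young and 3 aged values that did not overlap, which held for 19.2% of tested regions. Changes ran from 0.98 to 2.98 for the higher and from −2.06 to −1.08 for the lower regions, in units of the normal score, whereas the median over tested regions was −0.007. Of the 84 higher regions, 46 were called in no young list; of the 29 lower regions, 20 were called in no aged list. At the edge of the threshold the last higher region had an adjusted p of 0.00993 and the next 0.01004, and the last lower region had 0.00970 and the next 0.0102.

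These counts rested on the spread shared by 12 libraries and on every WT library. With the 6 WT libraries alone limma called 0 regions (lowest adjusted p 0.0516, 5162 regions at an unadjusted p under 0.05). Without Aged WT 1, Aged WT 3 or any other single WT library the counts fell to between 4 and 46 higher and between 3 and 8 lower. Each of the 113 kept its direction, which leaving out a library could not change because young and aged values did not overlap. With the length of the full list as a covariate 7 higher and 1 lower regions remained, and list length and age cannot be told apart among the WT libraries.

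The 12 regions that rose most lay between genes or in introns, 11.6 to 1645 kb from a protein-coding start, and 9 of them were called in no young list. The largest change was 58.7 kb from the start of Kcna4, a voltage-gated potassium channel gene (chr2:107231635-107232159). It had no summit at any score in the 3 young lists, and in the aged lists it ranked 2107, 894 and 157 with deposited scores of 44.5, 51.2 and 61.1. The change was 2.98 ± 0.24 (SE, adjusted p = 6.68e-07). In Mlkl-/- HSCs the same region was called in no young list and ranked 136, 193 and 872 in the aged lists.

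An intergenic region 749 kb from Jrkl (chr9:12496735-12497304) ranked 24403 in Young WT 1, was not called in the other young lists, and ranked 968, 369 and 1270 in the aged lists. It rose by 2.60 ± 0.27 (adjusted p = 4.04e-05). A region 19.98 kb from Trhr, the receptor of thyrotropin-releasing hormone (chr15:44175863-44176406), was called in no young list and ranked 4906, 11956 and 681 in the aged lists, a rise of 2.24 ± 0.32 (adjusted p = 0.001001). The aged values of this region were spread widely but all lay above the young ones.

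Regions called in some young lists also rose. The region 1645 kb from Cntnap5a, a gene of the neurexin family (chr1:114039333-114039871), ranked 13500 and 27943 in 2 young lists, was not called in Young WT 3, and ranked 455, 4208 and 126 in the aged lists (change 2.18 ± 0.35). The region 322 kb from Cox7c, a subunit of cytochrome c oxidase (chr13:85724074-85724597), ranked 11447 and 5826 in 2 young lists and 400, 303 and 244 in the aged lists (2.08 ± 0.33). Its aged ranks lay closer together than those of the other 4 rises named so far.

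The other 7 of the 12 largest rises had no call in any shortened young list. They lay 249 kb from Pdzph1 (2.15), in an intron of the lincRNA Gm29683, 86.1 kb from the nuclear receptor gene Nr2f2 (2.06), 1162 kb from Manea (2.05), in an intron of Farp1 (2.04), 64.4 kb from the glutamate transporter gene Slc1a1 (2.04), in an intron of the lincRNA Gm45459 near Spock3 (2.04) and 11.6 kb from Med10, a Mediator subunit gene (2.02). Their aged ranks lay between 1846 and 11740. In 5 of them the young lists held no summit at any score, and at Manea and Farp1 the young lists held scores of at most 4.27.

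**Figure D1:**
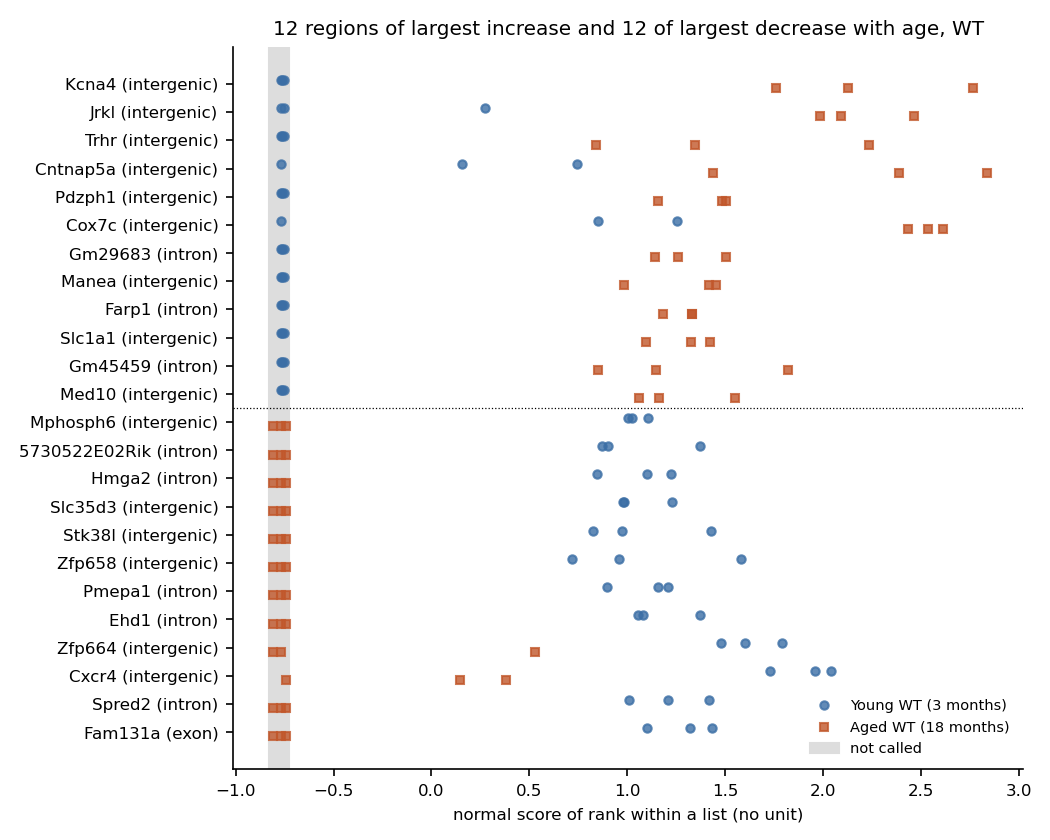
Normal score of the rank within each list (horizontal axis, no unit) for the 12 regions with the largest rise and the 12 with the largest fall in WT HSCs; blue circles are the 3 Young WT and orange squares the 3 Aged WT lists, and the grey band holds lists in which the region was not called. The young and aged values of every region shown are apart, and for 9 of the 12 rises and 10 of the 12 falls the lower group was not called at all.

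The regions that fell most had lain in the upper ranks of the young lists. The largest fall was in an exon of Fam131a, in its untranslated part (chr16:20701805-20702434), which ranked 7613, 5168 and 4193 in the young lists and was not called in the aged ones (change −2.06 ± 0.29, adjusted p = 0.000938). An intron of Spred2, an inhibitor of Ras-MAPK signalling (chr11:19993652-19994183), ranked 8938, 6332 and 4337 in the young lists. It fell by 1.99 ± 0.27 (adjusted p = 0.000743), although the deposited aged lists still held summits there, with scores of 5.37, 6.09 and 5.96 against 20.4, 24.9 and 26.8 in the young lists.

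A region 113 kb from Cxcr4, the receptor for CXCL12 that holds HSCs in the marrow (chr1:128705109-128705697), ranked 1356, 1105 and 2283 in the young lists. In the aged lists it ranked 21756 and 26365 and was not called in Aged WT 2. The fall was 1.98 ± 0.30 (adjusted p = 0.00152), and the deposited scores went from 41.4, 44.6 and 33.9 to 12.9, 4.34 and 9.99. A region 66.96 kb from Zfp664 fell likewise, from ranks of 2958, 1991 and 3842 to a single aged call at 18494 (−1.97 ± 0.29).

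Introns of Ehd1, a regulator of endocytic recycling (−1.94), of Pmepa1, which restrains TGF-beta signalling (−1.86), of Hmga2, an architectural chromatin protein linked to HSC self-renewal (−1.83), and of 5730522E02Rik (−1.82) were called in all 3 young and in no aged list. The same held for regions 7.56 kb from Zfp658 (−1.86), 38.0 kb from the kinase gene Stk38l (−1.85), 35.9 kb from Slc35d3 (−1.84) and 29.2 kb from Mphosph6 (−1.82). At Hmga2 the young ranks were 6158, 11640 and 7678 with deposited scores of 24.9, 17.3 and 19.9, and the deposited aged scores were 7.51, 2.45 and 7.18. Stk38l was the only one of these 8 regions with no deposited summit in any aged list.

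Pairs of changed regions that lay close together were looked for after their values were seen. Within 250 kb of each other there were 6 pairs, each with both members in the same direction. The nearest pair was the Stk38l region and a region that also fell, 11.6 kb away on chromosome 6 and nearest to Med21 (−1.80). The others rose, among them 2 regions 104 kb apart near Gcfc2 and the regions at Nsun2 and Med10, 227 kb apart.

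Only 22 of the higher and 5 of the lower regions were called in all 6 WT lists, so that both ages gave a rank. The largest such rise was in an intron of Ros1, a receptor tyrosine kinase gene (chr10:52133346-52133917), from ranks of 21923, 15835 and 35230 to 719, 485 and 1988 (1.83 ± 0.24, adjusted p = 0.000470). Ank3, which encodes ankyrin-G, held an intronic region that went from 12143, 17404 and 13689 to 554, 679 and 1916 (1.41 ± 0.21). A coding exon of Nsun2, an RNA methyltransferase gene, went from 14031, 23099 and 33055 to 2054, 3085 and 1361 (1.44 ± 0.21). Young and aged ranks were apart at all 3 loci.

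The other named rises among regions called in all 6 lists lay 396 kb from Cdh2, which encodes N-cadherin (1.54), in an intron of Tmtc2 (1.43), 317 kb from the formin gene Diaph3 (1.41), 110.0 kb from Gm9008 (1.39) and in an intron of the antisense gene Gm7854, 48.2 kb from Cpeb2 (1.32). The Cdh2 region had young ranks of 2587, 7199 and 28712, the widest spread of these, and aged ranks of 176, 789 and 222.

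The 5 falls among regions called in all 6 lists were all intronic. The C2cd5 repeat (chr6:143057083-143057874) ranked 18, 73 and 326 in the young lists, near the top of each list, and 3508, 5434 and 10619 in the aged lists (−1.74 ± 0.23, adjusted p = 0.000470). Ccdc12 went from 583, 152 and 330 to 5365, 9562 and 2927 (−1.23 ± 0.23). Rab8b, a small GTPase gene, went from 1451, 3154 and 1694 to 20831, 15563 and 11525 (−1.15 ± 0.20), and Cubn, which encodes cubilin, from 1106, 1603 and 2075 to 9935, 20871 and 7782 (−1.08 ± 0.19).

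Few gene starts were among these regions. Within 1 kb of a protein-coding start, 1 region rose and 1 fell. At the start of the adhesion gene Cntn1 (chr15:92050897-92051496) a region in the untranslated first exon was called in no young list, without any deposited summit, and ranked 9385, 6415 and 11750 in the aged lists (1.76 ± 0.31, adjusted p = 0.00576). At Cdcp2 (chr4:107096033-107096601) the ranks went from 7430, 4152 and 5168 to 22249 and 25340, with no call in Aged WT 2 (−1.36 ± 0.26, adjusted p = 0.00970).

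The position of these regions relative to genes was read from the annotation, as a description with no test. Of the tested regions 37.0% lay within 1 kb of a start of any gene, 33.4% in introns and 26.3% between genes. Of the 84 higher regions 2 (2.38%) lay at a start, 40 in introns and 40 between genes; of the 29 lower regions 1 (3.45%) lay at a start, 18 in introns and 9 between genes. More than 50 kb from any protein-coding start lay 56.0% of the higher regions, 24.1% of the lower regions and 22.4% of the tested regions. Of the 17708 regions called in all 6 WT lists 56.0% lay at a start, and the interquartile range of the change at starts (−0.22 to 0.18) was narrower than in introns (−0.32 to 0.33).

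**Figure D2:**
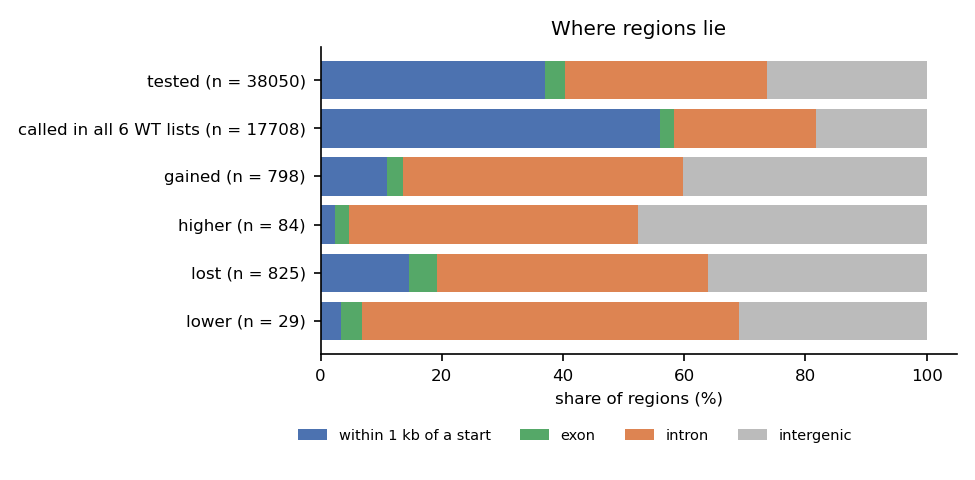
Share of regions (horizontal axis, percent) within 1 kb of a transcription start, in exons, in introns and between genes, for tested regions, regions called in all 6 WT lists, and the 4 sets of regions that differed between 3 and 18 months. Start-proximal regions make up 37.0% of tested regions and 2.38% to 14.7% of the 4 changed sets.

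Rising regions were poor in G and C. Their median GC content over 501 bases was 44.6%, against 49.7% in the lower and 52.1% in all tested regions. Among 10 bins of the tested regions by GC content, of about equal size, the lowest (26.5% to 42.1%) held 28 of the 84 higher and 0 of the 29 lower regions, and its median change was 0.20. The upper 3 bins held 2 higher and 1 lower region, with medians from −0.04 to −0.01. Across called regions the median GC content was 53.7% in each young list and 53.3%, 54.1% and 52.3% in the aged lists. With normal scores centred in 10 bins of GC content, 151 regions were higher and 97 lower, so that the higher share of calls was 60.9% in place of 74.3%. Of the original calls 78 of 84 and 28 of 29 passed there too. Whether base composition of the libraries had a part in the rises or falls was not tested.

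**Figure D3:**
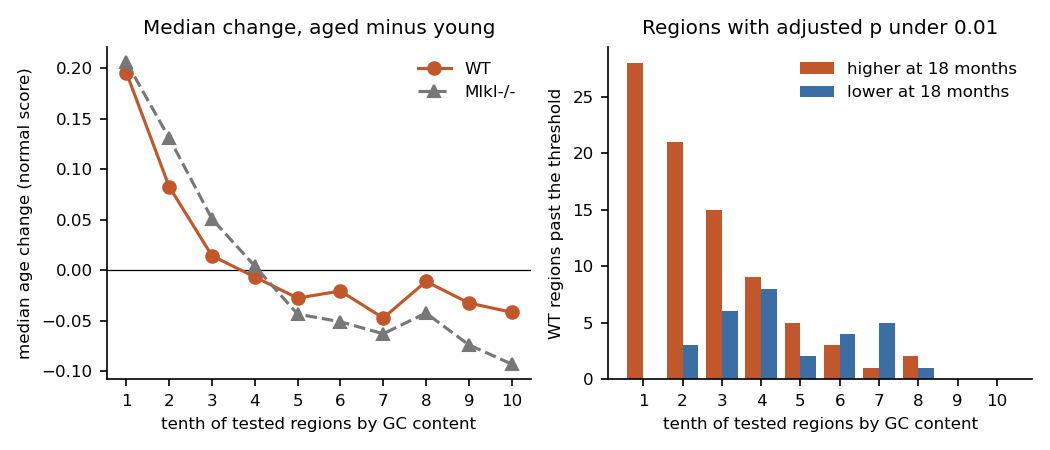
Left, median age change (vertical axis, normal score) in each of 10 bins of tested regions by GC content, from the lowest to the highest, in WT (orange circles) and Mlkl-/- HSCs (grey triangles); right, number of WT regions past the threshold in each bin, higher (orange) or lower (blue). The WT median falls from 0.20 in the lowest bin to −0.04 in the highest, and 28 of the 84 higher regions lie in the lowest bin.

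Calls that were all or none between the ages were more frequent than calls of the test. Of 52766 regions, 798 (1.51%) were gained, with a call in each aged and in none of the young lists, and 825 (1.56%) were lost, with the reverse pattern. Of the gained regions 10.9% lay at a start and 45.4% more than 50 kb from a protein-coding start. Of the lost regions 14.7% lay at a start and 27.9% beyond 50 kb. Deposited summits under the end of the shortened lists were then counted. Of the 798 gained regions 421 (52.8%) had no deposited summit in any young list, while 169 of the 825 lost regions (20.5%) had none in any aged list and 193 (23.4%) still had a summit in all 3. Of all 52766 regions 18.5% had no deposited summit in any young list and 8.71% had none in any aged list. With the lists at their unequal lengths 2561 regions were gained and 372 lost.

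Chromosome 16 held 42 gained and 17 lost among 1887 regions, and chromosome 19 held 6 gained and 31 lost among 1408. Over all regions 1.51% were gained and 1.56% lost. The median change of all tested regions was 0.006 on chromosome 16 and −0.127 on chromosome 19, and the median GC content was 50.5% and 54.1%. The X chromosome held 13 gained and 11 lost among 1339 regions. These chromosomes were picked after their values were seen.

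Protein-coding genes with at least 3 all-or-none regions in 1 direction, in the gene or within 10 kb, were Nav2, St6galnac3, Ptprk and Arhgap26 for gains and Vti1a, Map7d1 and Gm20388 for losses. Ptprk, a receptor tyrosine phosphatase gene listed among HSC ageing genes, gained 3 of its 10 regions and lost none. Nav2 gained 3 of 37 and lost 1, and St6galnac3, a sialyltransferase gene, gained 3 of 20 and lost none. Map7d1, with a length of 24.2 kb, lost 3 of 8 regions in the gene or within 10 kb and gained none. These lay in an intron of Map7d1, 24.4 kb from the start of Thrap3 and 1.33 kb from the start of Trappc3. Those named by Thrap3 and Trappc3 lay between genes. Vti1a, a SNARE gene, lost 3 of 9 and gained none. Gm20388 spans 4435 kb of other genes, and it lost 3 of its 267 regions and gained 1. Arhgap26 gained 3 of 33 and lost 1. For comparison, 1.51% of all regions were gained and 1.56% lost. These genes were picked by their counts.

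At Ptprk the region in the intron 30.6 kb from its start (chr10:28105148-28105754) had no young summit at any score and ranked 8001, 9879 and 7708 in the aged lists (1.80 ± 0.31, adjusted p = 0.00404). The other gained Ptprk regions had aged ranks between 17236 and 24713 and missed the threshold, with changes of 1.16 and 1.19 (adjusted p = 0.0820 and 0.0652). In Mlkl-/- HSCs the region 30.6 kb from the start was called in 3 aged lists and no young one.

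The motif content of the sets was read in 201 bases around the highest summit and is a description of letters only. The ETS letters were in 13 of the 29 lower regions (44.8%) and in 24.4% of the lost regions, against 20.2% of the higher, 15.04% of the gained and 16.1% of the tested regions. Of the tested regions away from starts 20.7% held them, and of the lost regions away from starts 26.0%. AP-1 letters were in 31.0% of the lower, 21.8% of the lost, 19.05% of the higher and 15.5% of the gained regions, against 10.1% of the tested and 13.6% of the tested regions away from starts. RUNX and GATA letters were each in 18 of the 84 higher regions (21.4%), against 10.4% and 8.54% of the tested regions and 14.4% and 11.8% of those away from starts. RUNX letters were in 16.8% of the gained, 14.1% of the lost and 6.90% of the lower regions, and GATA letters in 12.8%, 14.7% and 10.3%. Away from starts, RUNX letters were in 18.1% of the gained and 15.2% of the lost regions, and GATA letters in 13.4% and 15.8%. CTCF letters were in 1 of the 84 higher and 1 of the 29 lower regions, and in 7.90% of the tested ones and in 6.68% of those away from starts. IRF letters were in 11.2% of gained and 6.42% of lost regions (6.75% of tested, 8.23% away from starts), and NF-kB letters in 1.25% and 2.67% (1.47% of tested, 1.31% away from starts).

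Gene lists were read over regions in the gene or within 10 kb. Only 2 listed genes held a region past the threshold, Ptprk among HSC ageing genes (1 of 84 tested regions) and Bach2 among lymphoid genes (1 of 97). In the other 12 lists limma called 0 of 899 tested regions at an adjusted p under 0.01, and 118 (13.1%) had an unadjusted p under 0.05, against 14.9% of all tested regions. At an adjusted p under 0.05 in limma, 418 of the 38050 tested regions were higher and 347 lower. Each of the 14 lists held at most 1 of the higher and 2 of the lower, among 33 to 124 tested regions. These counts are too small to set against the share over all tested regions.

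Genes of HSC identity had 124 tested regions, with a median change of −0.09, which came to between −0.11 and −0.01 with 1 WT library left out and to −0.01 with lists of unequal length. The transcription factor genes Runx1 and Zfp521 each held a gained region and Gfi1b, Etv6 and Fli1 each a lost one. Of the 189 regions of this list 1.06% were gained and 1.59% lost, against 1.51% and 1.56% of all regions. At the start of Gfi1b, a repressor needed for HSC quiescence and platelet formation, the young ranks were 20936, 26864 and 26068 (deposited scores 6.67 to 10.5), and the aged lists held scores of 3.34 to 4.50. The changes at Runx1 (1.21) and Gfi1b (−1.05) missed the threshold (adjusted p = 0.0502 and 0.0942).

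Among 114 regions of 30 HSC ageing genes 5 were gained (4.39%, against 1.51% of all regions), 3 in Ptprk, 1 in Fhl1 and 1 shared by the metallothionein genes Mt1 and Mt2. Another 3 were lost (2.63%, against 1.56%), at Selp, Vwf and Ampd3. The median change was 0.10, and it stayed between 0.08 and 0.14 with any WT library left out. The median of the same list over regions called in all 6 lists was −0.08. Selp, which encodes P-selectin and is a common marker of HSC ageing, had a region at its start that ranked 28877, 34517 and 32369 in the young lists. Its change was −0.78 (adjusted p = 0.351), and the deposited aged lists held scores of 5.53, 3.44 and 6.16, so the loss of its call lay near the end of the shortened lists.

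Megakaryocyte and platelet genes had 6 lost regions among 88 (6.82%, against 1.56% of all regions) and 0 gained ones (1.51% of all regions). The lost regions lay at Selp, Gp5, Gfi1b, Vwf and Fli1 and within 10 kb of Itga2b. The region near Itga2b lay 5 bp from the start of its neighbour Fam171a2. Its deposited scores were 8.91, 7.60 and 8.29 in the young lists and still 7.34, 4.25 and 6.75 in the aged lists. The median change was −0.19 over 70 tested regions, and −0.01 with lists of unequal length. The region 5.80 kb from Vwf, the von Willebrand factor gene, ranked 22104, 19400 and 21516 in the young lists and had a deposited summit in 1 aged list, with a score of 3.34 (change −1.18, adjusted p = 0.0439). At Gp5 the deposited scores overlapped between young (5.71 to 6.33) and aged lists (5.94 to 7.16), although the region was lost from the shortened ones.

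Of the 124 regions of lymphoid genes 2.42% were gained and 1.61% lost, against 1.51% and 1.56% of all regions. Among these genes Bach2, a repressor that guards lymphoid fate, held 1 region that fell and 2 all-or-none regions that missed the threshold. The intronic region 41.1 kb from its start (chr4:32279708-32280278) ranked 1280, 1606 and 4744 in the young and 12591, 21266 and 17195 in the aged lists (−1.17 ± 0.21, adjusted p = 0.00624). A region 12.3 kb from that start ranked 11034, 10325 and 11348 in the young lists and was lost in the aged ones (−1.66, adjusted p = 0.0113), and a region 11.1 kb from it was gained (0.95, adjusted p = 0.109). Gata3, a T cell factor gene, gained 2 regions, 25.8 and 17.7 kb from its start, with changes of 1.30 and 0.94 (adjusted p = 0.0496 and 0.185). Flt3, whose product Flk2 was excluded by the sort, lost an intronic region with young ranks between 20482 and 27630 (−1.04, adjusted p = 0.0733).

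Myeloid genes held 0 gained and 0 lost regions among 55, against 1.51% and 1.56% of all regions. Their median change was −0.23 over 33 tested regions. That median ranged from −0.41 to −0.10 with 1 WT library left out and was −0.06 with lists of unequal length. Erythroid genes lost 1 of 54 regions (1.85%, against 1.56% of all regions), at Zfpm1, and their median of −0.03 came to 0.03 with 1 WT library left out. Cell cycle genes lost regions at Rb1, Ccnd3 and Mki67 (3 of 87, 3.45%, against 1.56% of all regions). They gained regions at Ccnd3 and Ccnd1 (2 of 87, 2.30%, against 1.51% of all regions). The region listed under Rb1 lay in an intron of the neighbouring gene Rcbtb2, within 10 kb of Rb1, and ranked 12613, 12145 and 15116 in the young lists (−1.53, adjusted p = 0.0133). The lost and the gained region of Ccnd3, which encodes cyclin D3, lay 18.1 and 22.5 kb from its start, with changes of −1.29 and 1.09.

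The remaining lists held few all-or-none regions. Of the regions of each list 0% to 1.18% were gained and 0% to 2.35% lost, against 1.51% and 1.56% of all regions. AP-1 and immediate-early genes gained 1, at the start of Nr4a3 (1.20, adjusted p = 0.0578), and interferon response genes gained 1, near Ifit1 (1.06). NF-kB and TNF signalling genes gained 1 at Traf1 and lost 1 each at Rela and Il1b, and a region at Ltbp1 was lost among TGF-beta genes. At Rela the deposited scores overlapped between young (6.62 to 10.4) and aged lists (6.55 to 7.55). Adhesion genes lost regions at Selp and Itga5 and gained 1 in Ctnna3. The gained region in Ctnna3 lay 22 bp from the start of Lrrtm3. Chromatin genes lost 1 at Hdac9, and mitochondrial and glycolytic genes had a lost region at Hk1 and a gained one at Slc2a3. The medians of these 7 lists lay between −0.14 and −0.02, and those of NF-kB and of mitochondrial genes came to 0.02 and 0.01 with 1 WT library left out. The mitochondrial value was also the median of all tested regions without Aged WT 3. It is the change that a region called in no remaining WT list receives, since the lowest shared rank differs slightly between lists. With lists of unequal length the NF-kB median was 0.03 and the TGF-beta median 0.003.

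The Mlkl-/- libraries gave a separate measurement of the same ageing interval, with no library in common. All 84 higher and all 29 lower regions changed in the same direction there, compared with 64.4% of all tested regions. At an adjusted p under 0.01, 42 of the 84 passed in Mlkl-/- HSCs as higher, where 0.281% of tested regions did, and 3 of the 29 passed as lower, where 0.0263% did. The median change was 1.68 in WT and 1.47 in Mlkl-/- HSCs over the higher regions, and −1.80 and −0.88 over the lower regions. The WT values were those that chose the regions, and the 2 contrasts shared 1 estimate of spread. The falls at Ehd1 (−1.94 in WT, −0.36 in Mlkl-/-), 5730522E02Rik (−1.82 and −0.48) and Rab8b (−1.15 and −0.15) were among those with the smallest Mlkl-/- change, while Zfp658 fell by 1.86 and 1.84. A test of the difference between the genotypes passed for 0 of 38050 regions (limma, lowest adjusted p = 0.978, 1797 regions at an unadjusted p under 0.05).

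Of the 798 gained regions 264 (33.1%) were gained in Mlkl-/- HSCs by the same rule, which held for 1.88% of the 52766 regions. Of the 825 lost regions 134 (16.2%) were lost there too, compared with 1.09% overall. Among gained regions without any deposited young WT summit the share was 48.2%, and among lost regions without any deposited aged WT summit it was 12.4%.

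**Figure D4:**
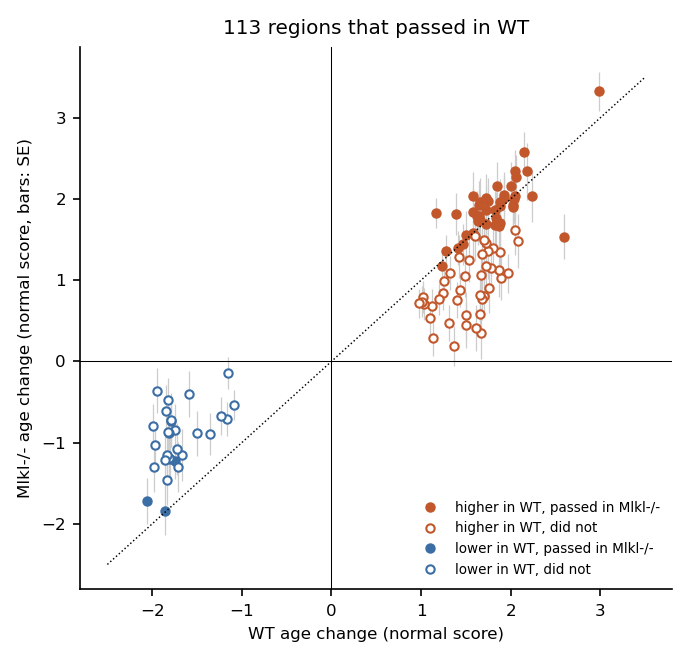
Age change in WT (horizontal axis) against age change in Mlkl-/- HSCs (vertical axis, bars are 1 SE), both in normal scores, for the 113 regions past the threshold in WT; filled points also passed in Mlkl-/- and the dotted line marks equal change. All points lie in the quadrants of equal sign, and 42 of 84 higher and 3 of 29 lower regions are filled.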

How the data were processed

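Samples were grouped by genotype and age as given in the labels, with 3 libraries in each of 4 groups, each a pool of sorted HSCs. Per the labels and the study's methods, the authors aligned single reads to mm10 with Bowtie2 (2.5.3) and called summits per library with MACS2 (2.2.7.1); the deposited score is −log10 of the q value. Lists began at a score of about 2.00, below the stated cutoff, so summits under 3 were removed. Lists were cut to 35696 summits, merged to 52766 regions, annotated with GENCODE M21, and ranked within lists. Normal scores of ranks were fitted in limma 3.58.1 (R 4.3.3; 4 group means, moderated variances with trend, Benjamini-Hochberg adjustment over 38050 regions, threshold 0.01), after tests on simulated data. Single values used exact permutation tests. Regions and lists were named by fixed rules: the largest 12 changes in each direction, changed regions at starts, the largest 8 changed regions in each direction among those called in all 6 WT lists, genes with at least 3 all-or-none regions, and 14 gene lists beside 6 marker lists. These members and lists were chosen with earlier results of these data known. Read depth was unknown, so no counting interval is given, and p-values measure the spread between pooled libraries. File names of 9 libraries carry a tag that the sources used here do not explain. Among the WT libraries only Aged WT 3 lacks it. Some members of the gene and marker lists are not reported here.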

Additional observations from a re-analysis of the deposited data

Results flagged for a closer look

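Young WT 1 had summits at the starts of 2 of 4 Y genes looked at (Kdm5d, Ddx3y, Uty, Eif2s3y), on a chromosome outside the comparison. The other 5 WT lists had none. Young Mlkl-/- 1 had summits at 3 of these genes, Young Mlkl-/- 2 at 2 and the other Mlkl-/- lists at none. A summit at the start of the X chromosome gene Xist was in Aged WT 3, Aged Mlkl-/- 1 and Aged Mlkl-/- 2 and in no other list. Y gene summits were thus in young lists alone and Xist summits in aged lists alone. The study used mice of both sexes, and the part of sex in the age changes was not tested. With the presence of any Y gene summit in each of the 12 libraries as a covariate 62 regions were higher and 9 lower.

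Summits on sequences outside the assembled chromosomes, also outside the comparison, numbered 98, 95 and 85 in Young WT 1 to 3 and 108, 101 and 112 in Aged WT 1 to 3, so the counts did not overlap. As shares of the deposited summits, which were more numerous in aged lists, they were 0.201%, 0.208% and 0.215% in the young lists and 0.189%, 0.193% and 0.183% in the aged lists, apart in the opposite direction.

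An intronic region of Cul4a, a scaffold of ubiquitin ligases, went in opposite directions in the 2 genotypes: it was called in all young and no aged WT lists and in no young and all aged Mlkl-/- lists. The age change was −0.87 in WT and 0.94 in Mlkl-/- HSCs, a difference of −1.81 (limma, unadjusted p = 0.000335, adjusted p = 0.978).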

How the results depend on the processing

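Of the 84 higher and 29 lower regions, every one kept its direction in each fit on the same catalogue, while the counts moved. Their young and aged values did not overlap, so fits with fewer libraries or on the percentile scale could not turn a direction. Regions higher and lower at 18 months numbered 193 and 102 with lists at unequal length, 9 and 3 with the 9 libraries whose file names carry the tag, 131 and 52 with regions called in at least 1 list, 17 and 4 on the percentile scale, 0 and 0 with the 6 WT libraries alone, 418 and 347 at an adjusted p under 0.05, and, chosen after seeing the data, 7 and 1 with list length as a covariate and 151 and 97 with scores centred by GC content. The lower regions alone moved by over 1.5 times with scores of 5 or more (16), windows of 100 bp (18), regions called in at least 6 lists (60) and Y gene summits as a covariate (9, also added later). Leaving out 1 WT library gave 4 to 46 higher and 3 to 8 lower regions; the lowest counts came without Aged WT 1 (4 and 3) and without Aged WT 3 (11 and 5). Gained and lost regions numbered 2561 and 372 at unequal length and 1288 and 1264 with the tagged libraries. With 1 library left out, where fewer lists have to meet the condition, they numbered 1090 to 1664 and 1176 to 1347. Among the WT libraries only Aged WT 3 lacks the tag, so for these counts the tagged setting equals leaving out Aged WT 3. The difference in the share at starts ranged from −2.44 to 0.310 with 1 library left out and changed sign without Aged WT 3. The excess of the Jaccard index within ages kept its sign in every alternative run, at 0.0437 to 0.0738. No named region reversed, which settings with fewer libraries could not produce because young and aged values did not overlap there. Named regions lost their call in 306 comparisons with an alternative. The cause of these moves was not tested, apart from the fewer samples or other thresholds that the settings themselves set.

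With the replicate number as a block 46 regions were higher and 12 lower. Same-numbered young and aged libraries deviated from their group means with correlations of −0.008, 0.015 and 0.013. For libraries of other numbers the correlations ran from −0.021 to 0.009. No pairing by number was seen in this measure, and the labels do not say whether the numbers pair the libraries. Depth was unknown, and scores near the end of the shortened lists limit the all-or-none calls.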
